A study of Mus musculus with 8 samples.

Results

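The 10 genes described here carry out or control the synthesis, conjugation and hepatic transport of bile acids. They were chosen by name, as the entries for Cyp7a1, Cyp8b1, Cyp27a1, Cyp7b1, Slc27a5, Baat, Slc10a1, Abcb11, Nr1h4 and Nr0b2 among 24062 gene entries of each count table, and all 10 passed the filter on low counts. RNA of mouse liver was sequenced after removal of ribosomal RNA in 8 libraries, 2 per group, from lean wild-type C57BL/6 mice fed freely, given 0.1 OD of adenovirus and killed 1 week later after 6 h without food. The shDnajb9 group, with a virus carrying a short hairpin against Dnajb9, a co-chaperone of the endoplasmic reticulum, and its lacZ1 control group were 3 months old. The shRictor group, with a hairpin against Rictor, a subunit that defines mTOR complex 2, and its lacZ2 control group were 4 months old. What the lacZ viruses encode is not given in the labels, nor whether each library came from its own animal, so the p-values measure only the spread between these libraries, which may be technical. All groups carried an adenovirus, and the labels name no promoter and no liver cell type that the virus reached.

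In hepatocytes, bile acids are made from cholesterol by a classical pathway that begins with Cyp7a1 and an alternative pathway that begins with Cyp27a1. They are then activated to coenzyme A esters, joined mainly to taurine in mice, exported into the bile canaliculus and taken up again from portal blood. Bile acids bind the nuclear receptor FXR, encoded by Nr1h4, which induces the repressor SHP (Nr0b2) and the export pump Abcb11, and which lowers Cyp7a1 and Cyp8b1 through SHP and, from the ileum, through the hormone FGF15.

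Most of the synthesis, conjugation and uptake genes were expressed more in the hairpin livers than in the lacZ livers of the same experiment. Nr0b2 and Abcb11, which are among the genes that FXR induces, were called in neither comparison. In shDnajb9 against lacZ1, 6 of the 10 genes rose, namely Cyp8b1, Cyp7b1, Slc27a5, Baat, Slc10a1 and Nr1h4, by 1.73-fold to 5.23-fold. Of all 13767 tested genes 11.6% rose in that comparison and 24.2% were called in either direction. In shRictor against lacZ2, 7 of the 10 rose, namely Cyp7a1, Cyp8b1, Cyp27a1, Cyp7b1, Slc27a5, Slc10a1 and Nr1h4, by 2.08-fold to 7.61-fold, where 7.31% of all tested genes rose and 18.2% were called in either direction. None of the 10 fell, where 12.6% of all tested genes fell in shDnajb9 and 10.9% in shRictor. The calls are those of edgeR's quasi-likelihood F test at a Benjamini-Hochberg adjusted p under 0.05 over all tested genes. The median log2 fold change of the 10 genes was 1.10 in shDnajb9 and 1.88 in shRictor, beside -0.05 and -0.02 over all tested genes. For the 9 general hepatocyte markers described below the medians were 1.19 in shDnajb9 and 1.10 in shRictor. In shDnajb9 the median of the 10 genes was thus not above that of the markers. In shDnajb9 the count depended on lacZ1 replicate 1 and on shDnajb9 replicate 1, since fewer of the 10 genes were called without either. Leaving out either library leaves 1 in its group, and fewer genes were then called over all tested genes too.

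Sequence of the proximal promoter is shown for a pair of genes that rose in both comparisons, Cyp8b1 and Slc10a1, and for the pair called in neither, Abcb11 and Nr0b2. RefSeq promoter windows on build GRCm38.p6 were at hand for 6 of the 10 genes, and the 250 bases before the annotated start are printed. Capitals mark a match to one of 4 motifs searched on both strands: the inverted repeat GGTCANTGACC of the FXR type, a relaxed form of it with a free base, GGNCANTGACC, the direct repeat GGTCANNGGTCA of the HNF4A and PPARA type, and the extended site CAAGGNCA of the LRH-1 type. Every match to the strict inverted repeat is also a match to the relaxed one, which was added after the windows had been seen.
Cyp8b1 promoter window, chr9:121916306-121916555, minus strand: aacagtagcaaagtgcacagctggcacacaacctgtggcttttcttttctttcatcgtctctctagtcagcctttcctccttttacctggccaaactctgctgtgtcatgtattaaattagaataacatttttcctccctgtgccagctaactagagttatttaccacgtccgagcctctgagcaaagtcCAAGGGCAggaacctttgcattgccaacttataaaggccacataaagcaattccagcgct
Slc10a1 promoter window, chr12:80968706-80968955, minus strand: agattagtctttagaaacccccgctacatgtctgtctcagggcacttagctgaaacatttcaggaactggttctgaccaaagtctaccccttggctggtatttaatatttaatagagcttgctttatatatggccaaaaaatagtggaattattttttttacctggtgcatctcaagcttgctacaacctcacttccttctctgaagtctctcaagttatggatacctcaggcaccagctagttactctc
Abcb11 promoter window, chr2:69342617-69342866, minus strand: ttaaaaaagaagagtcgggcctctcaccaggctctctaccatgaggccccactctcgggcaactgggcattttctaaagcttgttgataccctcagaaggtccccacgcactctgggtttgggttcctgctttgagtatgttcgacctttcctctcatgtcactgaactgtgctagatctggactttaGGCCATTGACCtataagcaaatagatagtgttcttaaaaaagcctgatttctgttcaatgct
Nr0b2 promoter window, chr4:133553126-133553375, plus strand: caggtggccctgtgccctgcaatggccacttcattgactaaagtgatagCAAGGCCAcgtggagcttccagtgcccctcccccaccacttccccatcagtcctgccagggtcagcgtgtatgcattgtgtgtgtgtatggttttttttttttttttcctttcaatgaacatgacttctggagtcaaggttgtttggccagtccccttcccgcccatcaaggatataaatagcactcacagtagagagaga
The Cyp8b1 window held 1 match to the extended site, 60 to 53 bases before the start, and the Nr0b2 window held 1, 201 to 194 bases before it. The Abcb11 window held the relaxed inverted repeat 62 to 52 bases before the start. No match lay in the Slc10a1 window printed, in the other Slc10a1 window, or in those of Cyp27a1 and Nr1h4. The bases after the start of the Cyp27a1 window were not found in a GENCODE transcript of the gene, so the place of that window is uncertain. Of 32851 such windows across the genome, 5.53% held the extended site, 0.198% the relaxed and 0.0335% the strict inverted repeat, and 0.164% the direct repeat. A match describes the letters only, and binding was not measured here.

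Levels below are CPM, gene counts scaled to a common library total with TMM factors between libraries. Fold changes are given on the log2 scale with their standard error (SE), and n is 2 libraries per group. Gene counts per library were 6426164 and 9606030 in shDnajb9, 9791933 and 7830716 in lacZ1, 9255887 and 11383532 in shRictor, and 6727294 and 10464225 in lacZ2. The 10 genes together took 0.292% and 0.352% of the gene counts in shDnajb9, 0.172% and 0.204% in lacZ1, 0.375% and 0.368% in shRictor, and 0.110% and 0.192% in lacZ2. Replicates differed by more than counting allows in every group (chi-square over its degrees of freedom, 18.2 to 52.0). Positions are those of GENCODE M21 on mm10.

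Before the bile acid genes, the targets were read in every library. Dnajb9 stood at 22.0 and 20.3 CPM in shDnajb9, against 30.6 and 38.0 CPM in lacZ1, and its value of -0.70 (SE 0.247) missed the threshold in edgeR (adjusted p = 0.056). Rictor stood at 40.1 and 42.0 CPM in shRictor, against 52.3 and 65.2 CPM in lacZ2, with a value of -0.52 (SE 0.281) that edgeR did not call (adjusted p = 0.231). Both targets were lower in 2 of 2 libraries of their own group without overlap, as were 35.1% of all tested genes in shDnajb9 and 31.6% in shRictor. In the other experiment, Dnajb9 was at 61.1 and 43.8 CPM in shRictor livers, against 40.4 and 38.8 CPM in lacZ2 livers, and Rictor at 33.3 and 63.4 CPM in shDnajb9 livers, against 65.4 and 68.8 CPM in lacZ1 livers. Rictor was thus lower without overlap under the Dnajb9 hairpin too, at -0.46 (adjusted p = 0.239, edgeR). Dnajb9 had 0.41 in shRictor (adjusted p = 0.271, edgeR), and neither was called.

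Of the classical pathway, Cyp7a1 (chr4:6265612-6275633, minus strand) encodes the rate-limiting enzyme. It stood at 128 and 247 CPM in shDnajb9, against 55.2 and 99.3 CPM in lacZ1. Both shDnajb9 libraries lay above both lacZ1 libraries, but replicate 1 of shDnajb9 was much nearer to them than replicate 2. The log2 fold change of 1.29 (SE 0.526) did not pass the test in edgeR (adjusted p = 0.0903). It passed at 1.27 without lacZ2 replicate 1 (adjusted p = 0.0304, edgeR) and at 1.28 without lacZ2 replicate 2 (adjusted p = 0.0295, edgeR). Those libraries belong to neither group of this comparison, and leaving 1 out changes the shared spread, the scaling and the set of tested genes. The fold change also passed with only its own 4 libraries and with no filter on low counts. In 15 of 20 alternatives it stayed uncalled. In shRictor Cyp7a1 stood at 342 and 339 CPM, against 22.4 and 91.9 CPM in lacZ2. The shRictor libraries nearly coincided, the lacZ2 libraries lay far apart and far below, and Cyp7a1 rose by 2.57 (SE 0.547, adjusted p = 0.00674, edgeR), a 5.93-fold change. Without lacZ2 replicate 2 the value was 3.94. Over the 4 groups the order of Cyp7a1 ran down from shRictor over shDnajb9 and lacZ1 to lacZ2, and only the ranges of the lacZ groups overlapped.

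Cyp8b1 (chr9:121914356-121916305, minus strand), a gene without introns in this annotation, encodes the sterol hydroxylase that directs synthesis to cholic acid. It stood at 624 and 549.6 CPM in shDnajb9, against 88.6 and 171 CPM in lacZ1. In shRictor it stood at 529.8 and 552 CPM, against 40.0 and 102 CPM in lacZ2. All 4 hairpin libraries lay between 529.8 and 624 CPM, and the highest lacZ library reached 171 CPM. Cyp8b1 rose by 2.18 (SE 0.441, adjusted p = 0.00468, edgeR) in shDnajb9, which was 4.53-fold, and by 2.93 (SE 0.454, adjusted p = 0.000979, edgeR) in shRictor, which was 7.61-fold. Without lacZ1 replicate 1 the shDnajb9 value was 1.75 and was not called (adjusted p = 0.0723, edgeR).

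Of the alternative pathway, Cyp27a1 (chr1:74713574-74737892, plus strand) encodes the mitochondrial sterol hydroxylase that begins it and that also oxidises the side chain in the classical pathway. It stood at 606 and 686 CPM in shDnajb9, against 322 and 362 CPM in lacZ1. The groups did not overlap, and the log2 fold change of 0.92 (SE 0.353) did not pass the test (adjusted p = 0.0734, edgeR). It passed with DESeq2, and in 15 of 20 alternatives it stayed uncalled with the same sign. It passed at 0.90 without either lacZ2 library in turn (adjusted p = 0.0373 and 0.0376, edgeR). In shRictor Cyp27a1 stood at 665 and 830.1 CPM, against 174 and 322 CPM in lacZ2. It rose there by 1.59 (SE 0.358, adjusted p = 0.00863, edgeR), or 3.01-fold, with lacZ2 replicate 1 the lowest library. Without lacZ2 replicate 1 the value was 1.22 (adjusted p = 0.0612, edgeR) and without shRictor replicate 2 it was 1.43 (adjusted p = 0.0607, edgeR), and neither was called.

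Cyp7b1 (chr3:18071950-18243338, minus strand) encodes the oxysterol hydroxylase of the alternative pathway. It stood at 335 and 366 CPM in shDnajb9, against 56.4 and 77.9 CPM in lacZ1. In shRictor it stood at 384 and 223 CPM, against 19.4 and 79.6 CPM in lacZ2. The lowest hairpin library, at 223 CPM, lay far above the highest lacZ library, at 79.6 CPM, although the shRictor libraries lay apart. Cyp7b1 rose by 2.39 (SE 0.516, adjusted p = 0.00672, edgeR) in shDnajb9, or 5.23-fold, and by 2.61 (SE 0.521, adjusted p = 0.00472, edgeR) in shRictor, or 6.10-fold. The shDnajb9 call did not hold without lacZ1 replicate 1 (2.15, adjusted p = 0.108, edgeR) and without shDnajb9 replicate 1 (2.45, adjusted p = 0.0603, edgeR). The shRictor value was 3.98 without lacZ2 replicate 2.

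**Figure D1:**
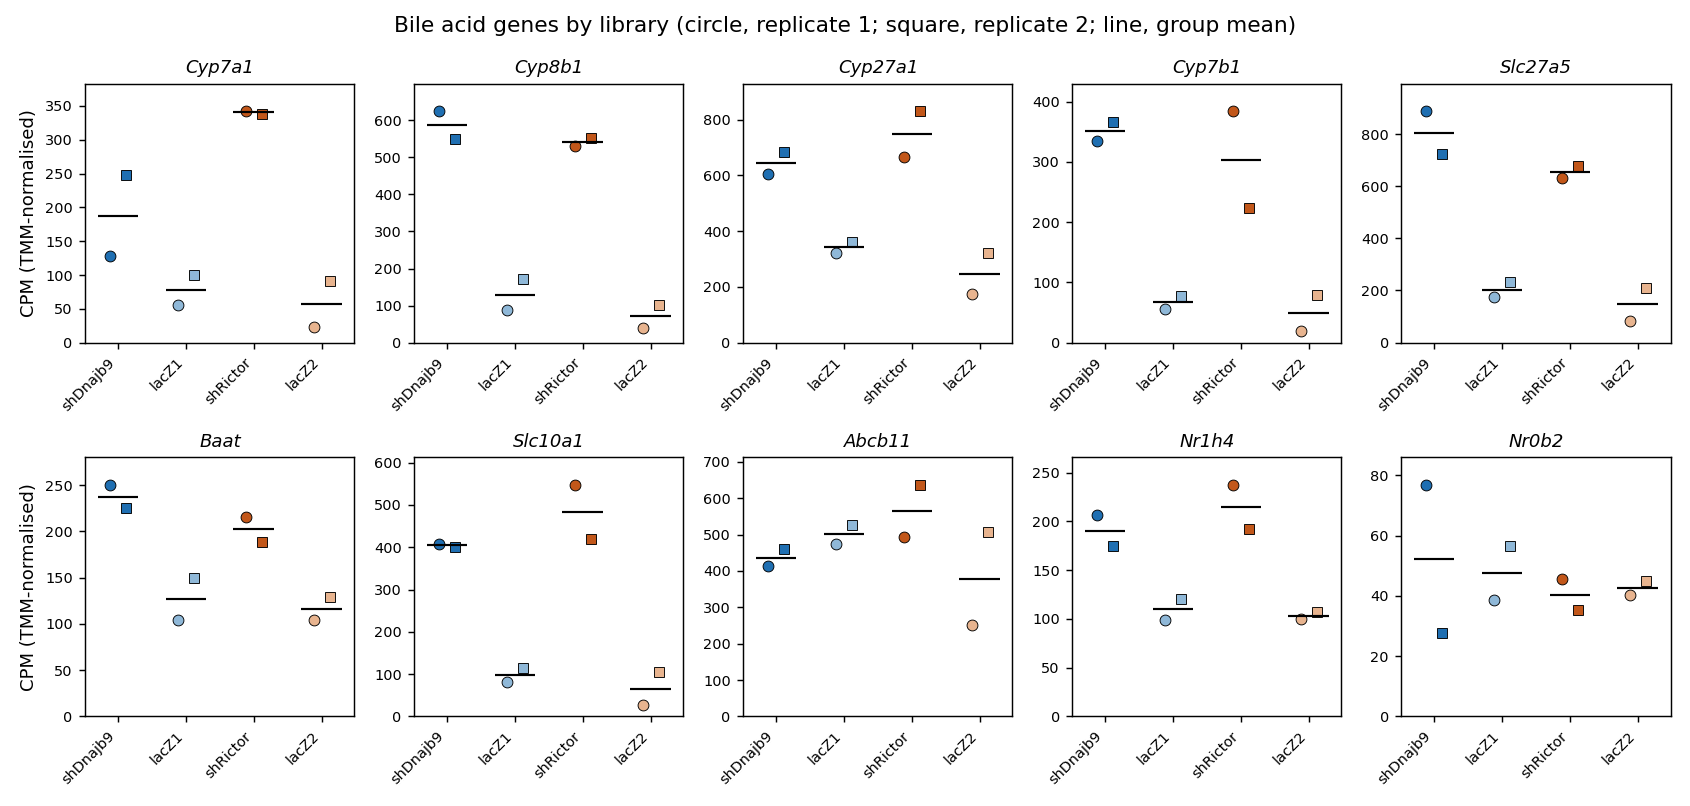
TMM-normalised CPM (linear axis from 0) of the 10 bile acid genes, a panel for each gene, with a point for each library (circle, replicate 1, and square, replicate 2) and a line at the group mean. Cyp8b1, Cyp7b1, Slc27a5 and Slc10a1 show the widest gap, with all hairpin libraries far above all lacZ libraries, and Nr0b2 and Abcb11 show groups at like heights.

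For conjugation, Slc27a5 (chr7:12988346-12998192, minus strand) encodes the ligase that forms bile acid coenzyme A esters, and Baat (chr4:49489422-49506557, minus strand) the transferase that joins them to an amino acid. Slc27a5 stood at 887 and 722 CPM in shDnajb9, against 176 and 231 CPM in lacZ1. It stood at 632 and 679 CPM in shRictor, against 84.6 and 209 CPM in lacZ2. The lowest hairpin library was thus far above the highest lacZ library in both experiments. Slc27a5 rose by 1.98 (SE 0.410, adjusted p = 0.00497, edgeR) in shDnajb9, or 3.95-fold, and by 2.16 (SE 0.413, adjusted p = 0.00343, edgeR) in shRictor, or 4.46-fold. Without lacZ1 replicate 1 the shDnajb9 value was 1.77 and was not called (adjusted p = 0.0767, edgeR).

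Baat stood at 250.1 and 225 CPM in shDnajb9, against 105 and 149.8 CPM in lacZ1, while shRictor livers had 216 and 189 CPM, against 104 and 129 CPM in lacZ2. Its groups did not overlap in either experiment, but the gap was small beside that of Slc27a5. Baat rose by 0.90 (SE 0.277, adjusted p = 0.0321, edgeR) in shDnajb9, or 1.87-fold. In shRictor its value of 0.79 (SE 0.277) did not pass the test (adjusted p = 0.0639, edgeR). The shDnajb9 call was lost without lacZ1 replicate 1 (0.64), lacZ1 replicate 2 (1.18) or shDnajb9 replicate 1 (0.83), with adjusted p of 0.334, 0.053 and 0.121 in edgeR. In shRictor Baat was called at 0.80 without shDnajb9 replicate 1 or 2 (adjusted p = 0.0489 and 0.0481, edgeR), which likewise belong to neither group. Against total counts alone, with no TMM scaling, the shDnajb9 value was 0.48 (adjusted p = 0.146, edgeR).

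For transport, Slc10a1 (chr12:80953183-80968705, minus strand) encodes NTCP, the sodium-dependent carrier that takes conjugated bile acids up from the blood. It stood at 407 and 401 CPM in shDnajb9, against 81.1 and 113 CPM in lacZ1. It stood at 547 and 418 CPM in shRictor, against 25.8 and 104 CPM in lacZ2. The lowest hairpin library, at 401 CPM, lay far above the highest lacZ library, at 113 CPM. Slc10a1 rose by 2.06 (SE 0.498, adjusted p = 0.0121, edgeR) in shDnajb9, or 4.16-fold, and by 2.89 (SE 0.514, adjusted p = 0.00239, edgeR) in shRictor, or 7.40-fold. The shDnajb9 call did not hold without lacZ1 replicate 1 (1.81, adjusted p = 0.142, edgeR) and without shDnajb9 replicate 1 (2.05, adjusted p = 0.0792, edgeR).

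Abcb11 (chr2:69238282-69342616, minus strand) encodes BSEP, the pump that exports bile salts into the canaliculus. It stood at 414 and 459 CPM in shDnajb9, against 475 and 527 CPM in lacZ1, the reverse order of the uptake carrier, without overlap. The log2 fold change was -0.20 (SE 0.363, 95% interval -0.98 to 0.59) and did not pass the test (adjusted p = 0.716, edgeR). In shRictor it stood at 492 and 636 CPM, against 250.1 and 508 CPM in lacZ2. The groups overlapped, and the value of 0.57 (SE 0.364, 95% interval -0.21 to 1.36) was not called (adjusted p = 0.310, edgeR). Without lacZ2 replicate 2 it was 1.19 and was called (adjusted p = 0.0454, edgeR). Of the 50-base stretches of Abcb11, 1.68% also occur in Gm13613, which overlaps it on the opposite strand by 155 exon bases.

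For control, Nr1h4 (chr10:89454234-89533585, minus strand) encodes FXR, the bile acid receptor. It stood at 206 and 174 CPM in shDnajb9, against 99.1 and 120.3 CPM in lacZ1. It stood at 237 and 193 CPM in shRictor, against 99.6 and 107 CPM in lacZ2. The hairpin libraries were all above the lacZ libraries, with no overlap. Nr1h4 rose by 0.79 (SE 0.260, adjusted p = 0.0415, edgeR) in shDnajb9, or 1.73-fold, and by 1.06 (SE 0.260, adjusted p = 0.0142, edgeR) in shRictor, or 2.08-fold. The shDnajb9 call lay close to the threshold and was lost without lacZ1 replicate 1 (0.63), lacZ1 replicate 2 (0.93), shDnajb9 replicate 1 (0.67), shRictor replicate 1 (0.80) or shRictor replicate 2 (0.79). The shRictor call was lost without lacZ2 replicate 1 (1.00) or shRictor replicate 1 (0.90), with adjusted p of 0.0831 and 0.112 in edgeR. With total counts alone it was lost in both, at 0.36 in shDnajb9 and 0.65 in shRictor (adjusted p = 0.238 and 0.0575, edgeR).

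Nr0b2 (chr4:133553376-133556536, plus strand) encodes SHP, the repressor that FXR induces. It stood at 76.7 and 27.6 CPM in shDnajb9, against 38.7 and 56.4 CPM in lacZ1. The shDnajb9 libraries lay on either side of the lacZ1 libraries, and the log2 fold change of 0.12 (SE 0.379, 95% interval -0.70 to 0.94) was not called (adjusted p = 0.837, edgeR). Its sign followed the replicate left out, with -0.78 without shDnajb9 replicate 1 and 0.69 without shDnajb9 replicate 2. In shRictor it stood at 45.4 and 35.2 CPM, against 40.1 and 44.9 CPM in lacZ2. The groups overlapped, and the value was -0.08 (SE 0.378, 95% interval -0.90 to 0.74, adjusted p = 0.911, edgeR). These intervals do not show that the level was unaltered.

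In shDnajb9 against lacZ1, 8 of the 10 genes were higher without overlap, 1 was lower without overlap and 1 overlapped, where 32.4% of all tested genes were higher and 35.1% lower without overlap. In shRictor against lacZ2, 8 were higher without overlap and 2 overlapped, beside 28.8% of all tested genes higher and 31.6% lower. Of the 10 genes 5 rose in both comparisons, namely Cyp8b1, Cyp7b1, Slc27a5, Slc10a1 and Nr1h4, where 4.16% of all tested genes rose in both. The comparisons share no library. The difference between the comparisons, as an interaction in the same edgeR fit, was called for 0 of the 10 genes and for 0.00726% of all tested genes. Its estimate was 1.28 for Cyp7a1 (SE 0.736, 95% interval -0.31 to 2.88, adjusted p = 0.525, edgeR), so that a larger rise in shRictor was neither shown nor shown to be missing. It was 0.77 for Abcb11 (95% interval -0.34 to 1.88), 0.83 for Slc10a1 (-0.64 to 2.30), 0.75 for Cyp8b1 (-0.55 to 2.05) and 0.67 for Cyp27a1 (-0.40 to 1.74). For Cyp7b1, Slc27a5, Baat, Nr1h4 and Nr0b2 the estimates lay between -0.20 and 0.26. At an unadjusted p under 0.05 in edgeR the count was also 0 of the 10, beside 1495 of all 13767 tested genes. At the adjusted threshold, DESeq2 and limma-voom called 0 of the 10 as well, beside 45 and 1 of all tested genes.

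**Figure D2:**
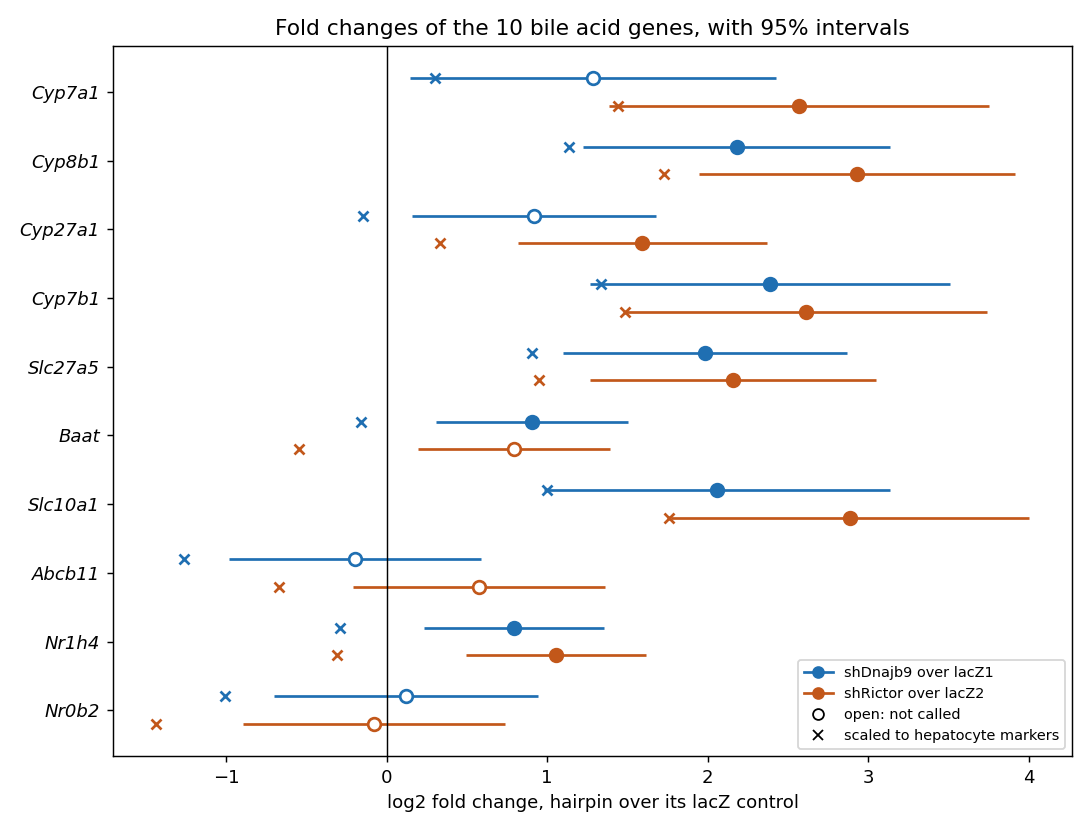
Log2 fold change (horizontal axis) of each bile acid gene in shDnajb9 over lacZ1 (blue) and shRictor over lacZ2 (orange), with 95% intervals, filled where called and open where not, and crosses for the value after scaling to hepatocyte markers. Cyp8b1, Cyp7b1, Slc27a5 and Slc10a1 stay right of 0 on either scale, and Nr0b2 lies near 0 on the TMM scale at 0.12 and -0.08.

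The lacZ groups of the experiments, which differ in age, were set against each other with the same fit. For lacZ2 against lacZ1, edgeR called 0 of the 10 genes and 0% of all tested genes. At an unadjusted p under 0.05 the counts were 0 and 169, and DESeq2 called 0 and 1. All 10 estimates were below 0, from -0.87 for Cyp8b1 to -0.09 for Nr1h4, and Cyp27a1 alone of the 10 was lower in lacZ2 without overlap, as were 9.97% of all tested genes. Its nearest libraries of both groups stood at 322 CPM before further decimals. In lacZ2 replicate 1, 8 of the 10 genes had their lowest level of all 8 libraries. Without that library the estimate was above 0 for 6 genes, at 0.25 for Cyp7a1, 0.25 for Cyp7b1, 0.10 for Slc10a1, 0.040 for Slc27a5, 0.023 for Abcb11 and 0.022 for Baat. It stayed below 0 for 4 genes, at -0.35 for Cyp8b1, -0.086 for Cyp27a1, -0.078 for Nr0b2 and -0.033 for Nr1h4. In lacZ2 replicate 1 the ribosomal RNA precursor Rn45s took 2.60% and the ribonuclease P RNA Rpph1 4.26% of gene counts, and in shDnajb9 replicate 1 Rpph1 took 4.70%, whereas the other libraries ranged up to 1.59% and 2.03%. With both of these libraries left out together, 5 of the 10 genes were called in shDnajb9, where Baat and Nr1h4 were lost and Cyp7a1 was gained at 1.68 (adjusted p = 0.00729, edgeR), and 7 in shRictor. Reads without a unique alignment made up 41.3% and 42.0% of the HTSeq classes in shDnajb9, 22.9% and 24.9% in lacZ1, 32.7% and 26.7% in shRictor, and 24.6% and 24.2% in lacZ2, and their part in the results was not tested.

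Levels were compared between genes per kilobase of exon (CPM per kb), since the genes differ in length. Cyp27a1 had the highest level of the 10 genes in 7 of 8 libraries, and Slc27a5 in shDnajb9 replicate 1. In all 4 lacZ libraries Cyp7a1 had the lowest, at 5.38 to 23.8 CPM per kb. In shRictor it averaged 81.5 ± 0.545 CPM per kb (SD, n = 2), and Nr0b2 had the lowest level there. Among the 10 genes Abcb11 held rank 8 and 7 in shDnajb9, rank 2 in both lacZ1 libraries, rank 8 and 5 in shRictor, and rank 3 and 2 in lacZ2. Cyp8b1 held rank 2 and 3 in shDnajb9, rank 5 and 4 in lacZ1, rank 2 in both shRictor libraries, and rank 7 and 5 in lacZ2.

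Ratios of 2 genes within a library do not depend on the scaling between libraries, and show unequal change only. The ratio of uptake carrier to export pump, Slc10a1 over Abcb11 per kb, was 2.30 and 2.05 in shDnajb9, against 0.400 and 0.504 in lacZ1. The ratio was 2.60 and 1.54 in shRictor, against 0.242 and 0.480 in lacZ2. In every hairpin library the carrier thus exceeded the pump, and in every lacZ library the pump exceeded the carrier. Of the alternative pathway, Cyp7b1 over Cyp27a1 was 0.555 and 0.536 in shDnajb9, against 0.175 and 0.216 in lacZ1, and 0.579 and 0.270 in shRictor, against 0.112 and 0.248 in lacZ2. Of conjugation, Slc27a5 over Baat was 2.82 and 2.55 in shDnajb9, against 1.34 and 1.23 in lacZ1, and 2.33 and 2.86 in shRictor, against 0.646 and 1.29 in lacZ2. None of these 3 ratios overlapped between hairpin and lacZ libraries of an experiment. Some other pairs did overlap in an experiment, and no share over all pairs is given. Single genes were often without overlap too. In shDnajb9, 32.4% of all tested genes were higher and 35.1% lower without overlap, and in shRictor 28.8% and 31.6%. Cyp7b1 over Cyp7a1 overlapped in shRictor (2.16 and 1.27, lacZ2 1.67 and 1.67) but was higher in shDnajb9 (5.03 and 2.85, lacZ1 1.97 and 1.51). Cyp27a1 over Cyp7a1 overlapped in shDnajb9 (9.07 and 5.32, lacZ1 11.2 and 6.99) but was lower in shRictor (3.74 and 4.71, lacZ2 14.9 and 6.72).

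Repressor over receptor, Nr0b2 over Nr1h4 per kb, was 0.756 and 0.323 in shDnajb9, against 0.793 and 0.954 in lacZ1. The ratio was 0.390 and 0.372 in shRictor, against 0.820 and 0.854 in lacZ2. The hairpin libraries were lower in both experiments without overlap, by little in shDnajb9 replicate 1. The ratio of Cyp8b1 to Cyp7a1 was 10.4 and 4.76 in shDnajb9, against 3.44 and 3.68 in lacZ1, and 3.32 and 3.49 in shRictor, against 3.82 and 2.37 in lacZ2. It overlapped in shRictor only. With 2 libraries against 2, an exact two-sided permutation test of a ratio cannot go below p = 0.333, so the ratios are given as descriptions.

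**Figure D3:**
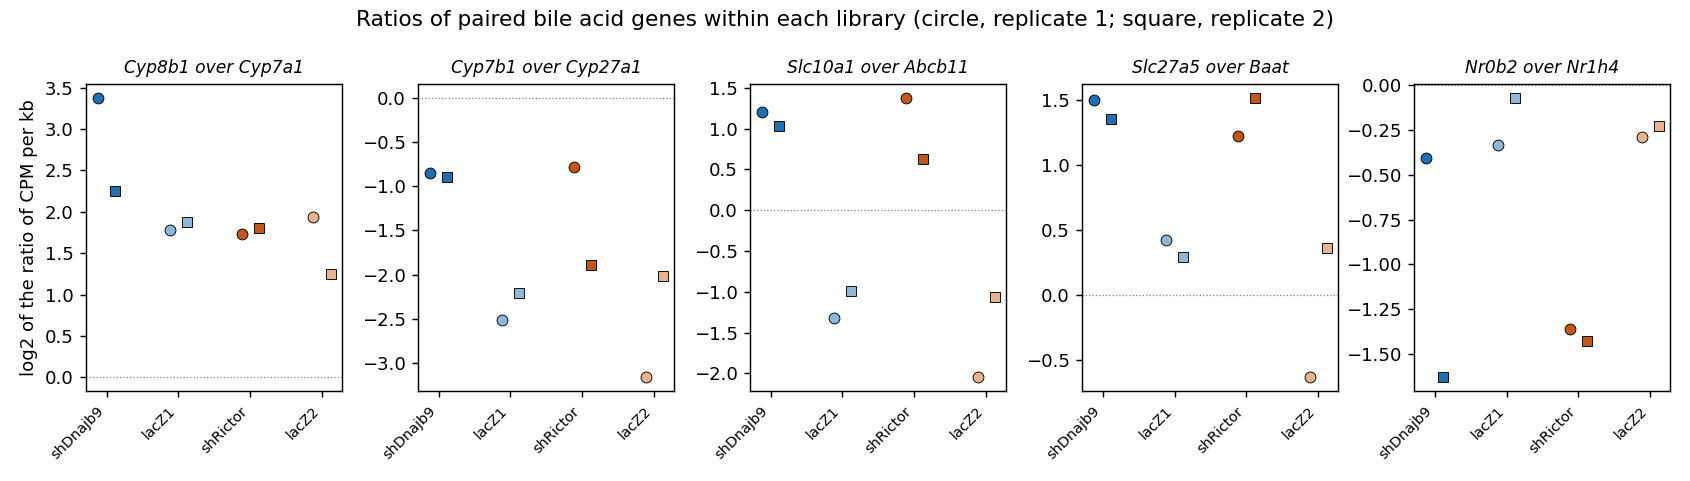
Log2 ratio of the levels per kb of 2 bile acid genes within each library (vertical axis, dotted line at equal levels where in range), by group, with circles for replicate 1 and squares for replicate 2. Slc10a1 over Abcb11 lies above the line in the 4 hairpin libraries and below it in the 4 lacZ libraries.

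General hepatocyte genes were read beside the bile acid genes. Of all tested genes 11.6% rose and 12.6% fell in shDnajb9, and 7.31% rose and 10.9% fell in shRictor. Of 9 hepatocyte markers (10 listed, and no entry was named Tf), 3 rose in shDnajb9 (Apoa1, Ttr and Hpd), 3 rose in shRictor (Apoa1, Hpd and Apoh) and none fell, with median log2 fold changes of 1.19 and 1.10. Their summed level was 65934 to 82229.7 CPM in shDnajb9, 46673 to 61022 CPM in lacZ1, 66512 to 76781 CPM in shRictor and 26973 to 51093 CPM in lacZ2. In bulk liver, fewer cells of a type and less RNA per cell cannot be told apart. When libraries were scaled to these 9 markers in place of TMM, an alternative chosen after the values were seen that moves the median of all genes to -1.12 in shDnajb9 and -1.39 in shRictor, Cyp8b1, Cyp7b1, Slc27a5 and Slc10a1 were still called in both comparisons. The median prior degrees of freedom of that fit were infinite, so many genes had no spread of their own. Its p-values are therefore not printed, and its calls are descriptions only. The values of these 4 genes were then 1.14, 1.34, 0.90 and 1.00 in shDnajb9 and 1.73, 1.49, 0.95 and 1.76 in shRictor, and Cyp7a1 was called in shRictor at 1.44. On that scale Nr1h4, Baat and Cyp27a1 were not called in either comparison. Nr0b2 was called lower in both, at -1.0 in shDnajb9 and -1.43 in shRictor, and Abcb11 in shDnajb9, at -1.26. These values lay near the medians of all genes on that scale. Of 13767 tested genes, 7125 were then called lower and 155 higher in shDnajb9, and 10401 lower and 114 higher in shRictor.

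Markers of the liver zones rose in part: of 10 pericentral markers 2 rose in shDnajb9 and 4 in shRictor, and of 9 periportal markers 3 rose and 1 fell in shDnajb9 and 5 rose in shRictor. Over all tested genes, 11.6% rose and 12.6% fell in shDnajb9, and 7.31% rose and 10.9% fell in shRictor. Of markers of other cell types, most of those called fell, though counts of 1 of 10 lay near those shares. In shDnajb9 and shRictor, 2 and 1 of 7 cholangiocyte markers fell, 2 and 3 of 8 macrophage markers, 1 and 3 of 10 lymphocyte markers, 4 and 1 of 5 neutrophil markers and 4 and 1 of 10 stellate or fibroblast markers, among which Hand2 rose in shDnajb9. Of 10 endothelial markers 1 rose in shDnajb9 and 0 changed in shRictor. All 10 proliferation markers fell in both comparisons, with summed levels of 88.3 to 119 CPM in shDnajb9, 684 to 834 CPM in lacZ1, 69.2 to 117 CPM in shRictor and 524 to 554 CPM in lacZ2. The part of these lists in the results of the bile acid genes was not tested, and of the liver lists no marker was at 0 in all 8 libraries.

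Other genes of bile acid metabolism were read from a list of 54, of which 53 had an entry and 51 were tested. In shDnajb9, 9 rose and 6 fell, and in shRictor 12 rose and 3 fell, with median log2 fold changes of 0.11 and 0.61. Over all tested genes, 11.6% rose and 12.6% fell in shDnajb9 and 7.31% rose and 10.9% fell in shRictor. Of the 51, 7 rose in both comparisons (Akr1d1, Stard4, Fdx1, Slco1a1, Slco1b2, Nr1i3 and Ppargc1a), 3 fell in both (Abcc4, Slc51b and Abcb1a) and 0 moved in opposite directions, where 4.16% of all tested genes rose in both and 6.85% fell in both. With libraries scaled to hepatocyte markers, Slco1a1 was called higher and Abcc4 and Abcb1a lower in both comparisons, and Fdx1 higher in shDnajb9. Of 13767 tested genes, 155 were then called higher and 7125 lower in shDnajb9, and 114 and 10401 in shRictor. A called fall was thus common on that scale, and these calls are descriptions only. On that scale the calls were lost for Stard4 (0.67 in shDnajb9 and 0.30 in shRictor), Nr1i3 (-0.17 and 0.13), Ppargc1a (-0.0086 and 0.15), Hsd3b7 in shDnajb9 (0.49), and Fdx1 (-0.11), Slc27a2 (0.24) and Fgfr4 (-0.30) in shRictor. The difference between the comparisons was called for 0 of the 51 in edgeR (14 at an unadjusted p under 0.05) and for 1 in DESeq2. Over all 13767 tested genes it was called for 1 in edgeR (1495 at an unadjusted p under 0.05) and for 45 in DESeq2.

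Of 17 tested synthesis genes, 5 rose and 2 fell in shDnajb9 (Cyp39a1 and Ch25h fell), and 4 rose and 0 fell in shRictor. Beside them, 11.6% of all tested genes rose and 12.6% fell in shDnajb9, and 7.31% rose and 10.9% fell in shRictor. Fdx1, the ferredoxin that passes electrons to mitochondrial Cyp27a1, stood at 259 and 158 CPM in shDnajb9, against 36.7 and 45.1 CPM in lacZ1, and rose by 2.35 (SE 0.292, adjusted p = 0.000218, edgeR). It stood at 115 and 88.2 CPM in shRictor, against 43.1 and 40.9 CPM in lacZ2, and rose by 1.27 (SE 0.283, adjusted p = 0.00811, edgeR), though not without lacZ2 replicate 1 (1.31) or shRictor replicate 1 (1.08), with adjusted p of 0.0535 and 0.0706. Stard4, a cytosolic cholesterol carrier, rose by 1.75 (SE 0.246, adjusted p = 0.000472, edgeR) in shDnajb9 and 1.64 (SE 0.245, adjusted p = 0.000719, edgeR) in shRictor. Hsd3b7, which acts on the sterol ring after the first hydroxylation, was called in shDnajb9 at 1.59 (SE 0.367, adjusted p = 0.00888, edgeR), not without lacZ1 replicate 1 (1.30) or shDnajb9 replicate 1 (1.14), and 83.1% of its 50-base stretches occur in another gene, so its count is uncertain. Slc27a2, an acyl-CoA ligase related to Slc27a5, was called in shRictor at 1.49 (SE 0.385, adjusted p = 0.0178, edgeR), and was lost without lacZ2 replicate 1 (1.08), shRictor replicate 1 (1.60) or shRictor replicate 2 (1.38).

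Of 14 tested transporters, 2 rose and 3 fell in shDnajb9, and 3 rose and 3 fell in shRictor. Beside them, 11.6% of all tested genes rose and 12.6% fell in shDnajb9, and 7.31% rose and 10.9% fell in shRictor. The count that rose in shDnajb9 was near that share. Slc51b, which fell in both comparisons, had few counts. Summed over a group, they were 5 in shDnajb9 against 45 in lacZ1, and 10 in shRictor against 54 in lacZ2. Slco1a1, a sodium-independent uptake carrier of the blood-facing membrane, stood at 750.2 and 794 CPM in shDnajb9, against 23.8 and 42.6 CPM in lacZ1, while shRictor livers had 537 and 223 CPM, against 8.37 and 38.2 CPM in lacZ2. It had the largest rise of the 51 genes, 4.54 (SE 0.656, adjusted p = 0.000613, edgeR) in shDnajb9 and 4.02 (SE 0.641, adjusted p = 0.00120, edgeR) in shRictor. Abcc4, an efflux pump of the blood-facing membrane, stood at 3.56 and 6.28 CPM in shDnajb9, against 86.3 and 94.2 CPM in lacZ1, while shRictor livers had 8.01 and 10.7 CPM, against 95.1 and 52.2 CPM in lacZ2. It fell by 4.14 (SE 0.365, adjusted p = 3.81e-05, edgeR) in shDnajb9 and by 2.97 (SE 0.334, adjusted p = 0.000151, edgeR) in shRictor, the opposite direction to the uptake carriers Slc10a1 and Slco1a1. Abcb1a, a multidrug efflux pump, fell by 3.22 (SE 0.370, adjusted p = 0.000153, edgeR) in shDnajb9 and by 1.96 (SE 0.339, adjusted p = 0.00191, edgeR) in shRictor, and 22.5% of its 50-base stretches occur in another gene, chiefly Abcb1b.

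Of 20 tested regulators, 2 rose and 1 fell in shDnajb9, and 5 rose in shRictor. Beside them, 11.6% of all tested genes rose and 12.6% fell in shDnajb9, and 7.31% rose in shRictor. In shDnajb9 the counts of regulators were not above these shares. Ppargc1a, a coactivator of nuclear receptors that is induced in fasting, stood at 17.0 and 31.4 CPM in shDnajb9, against 11.0 and 13.1 CPM in lacZ1, while shRictor livers had 21.3 and 23.4 CPM, against 6.98 and 9.22 CPM in lacZ2. It rose by 1.03 (SE 0.297, adjusted p = 0.0256, edgeR) in shDnajb9 and by 1.45 (SE 0.302, adjusted p = 0.00547, edgeR) in shRictor. Without shDnajb9 replicate 2 the shDnajb9 value was 0.50, without lacZ1 replicate 1 it was 0.88 and without lacZ1 replicate 2 it was 1.16, and none of these was called, nor was the shRictor value of 1.27 without lacZ2 replicate 1. Nr1i3, the receptor CAR, was called higher at 0.89 (SE 0.235, adjusted p = 0.0174, edgeR) and 1.48 (SE 0.235, adjusted p = 0.00105, edgeR), but 63.6% of its 50-base stretches occur in Tomm40l on the other strand, so its count is uncertain. The shDnajb9 call of Nr1i3 was lost without lacZ1 replicate 1 (0.85), lacZ1 replicate 2 (0.90) or shDnajb9 replicate 2 (0.64). Fgfr4, the receptor of FGF15 on hepatocytes, rose in shRictor by 1.11 (SE 0.251, adjusted p = 0.00888, edgeR), not without lacZ2 replicate 2 (0.99) or shRictor replicate 2 (0.98).

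The other 2 regulators that rose in shRictor were the fatty acid receptor Ppara, at 1.15 (SE 0.352, adjusted p = 0.0389, edgeR), and the forkhead factor Foxo1, at 0.95 (SE 0.278, adjusted p = 0.0316, edgeR). The Ppara call was lost without lacZ1 replicate 1 or 2 (1.15 each), lacZ2 replicate 1 (0.83), shRictor replicate 1 (1.38) or shRictor replicate 2 (0.88), and the Foxo1 call without lacZ2 replicate 1 (1.04), lacZ2 replicate 2 (0.88) or shRictor replicate 2 (0.61). Both were also lost with total counts alone (0.76 for Ppara and 0.53 for Foxo1), with the replicate block (1.17 and 0.92) and with hepatocyte scaling (-0.14 and -0.45), and Ppara with its own 4 libraries only (1.15). Nr5a2 (LRH-1), which was not called, had a log2 difference of 0.45 (SE 0.221, adjusted p = 0.149, edgeR) in shDnajb9 and 0.37 (SE 0.220, adjusted p = 0.276, edgeR) in shRictor. Hnf4a, also not called, had 0.11 (SE 0.339, adjusted p = 0.827, edgeR) in shDnajb9 and 0.37 (SE 0.339, adjusted p = 0.497, edgeR) in shRictor. Ppara, Foxo1, Nr5a2 and Hnf4a were named after their values had been seen.

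**Figure D4:**
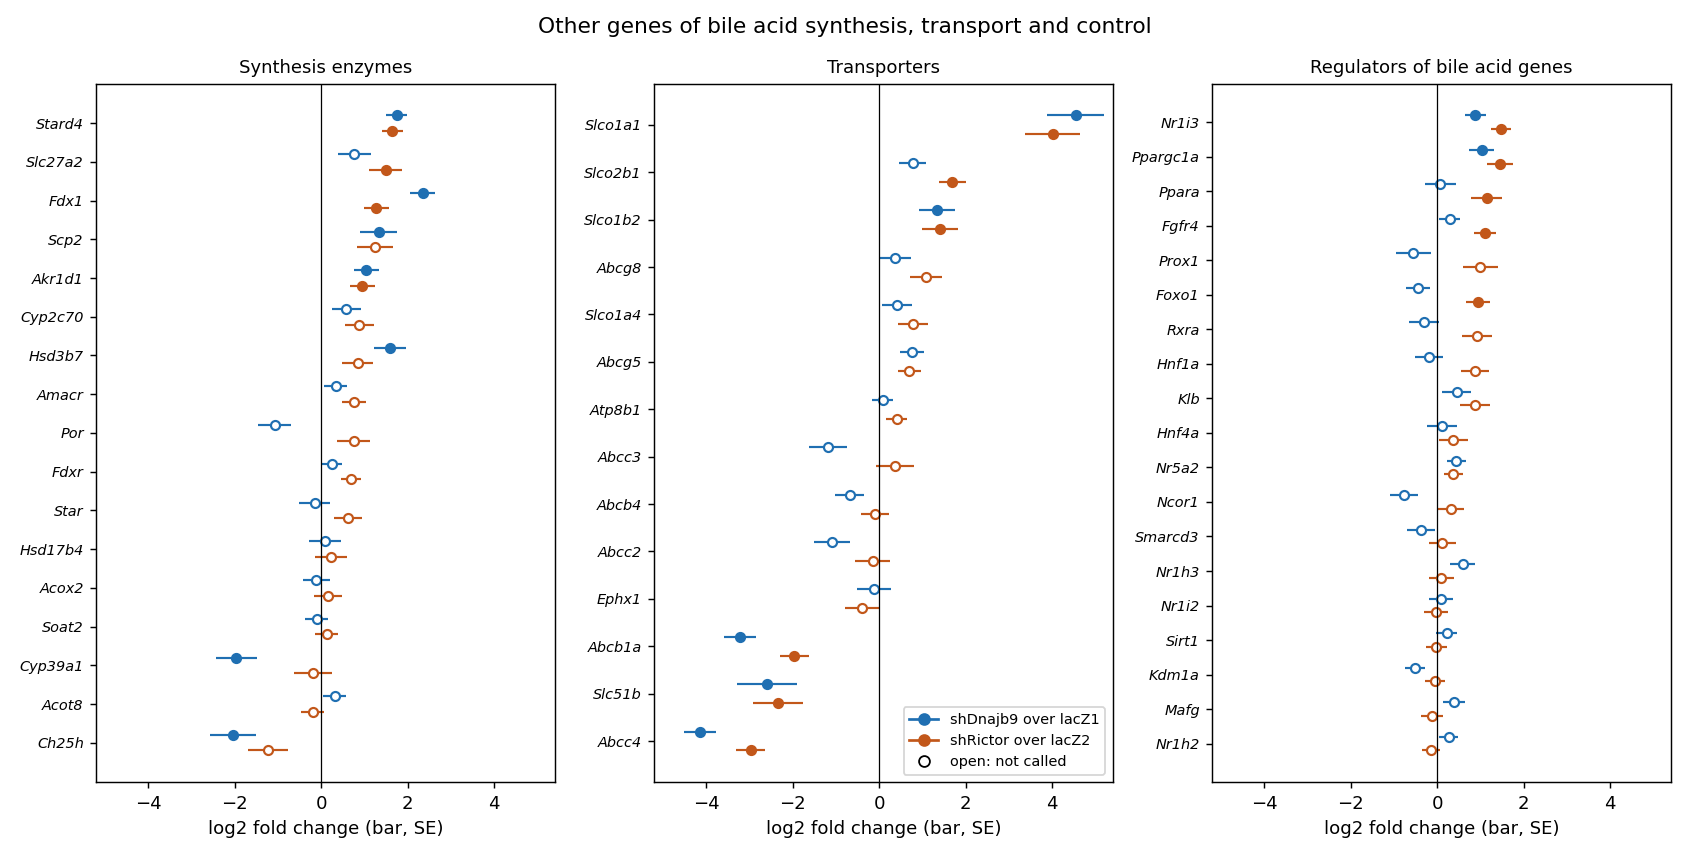
Log2 fold change with SE bars (horizontal axes) of the other tested genes of bile acid synthesis, transport and control, apart from 1 regulator that is not drawn, in shDnajb9 over lacZ1 (blue) and shRictor over lacZ2 (orange), filled where called. Slco1a1 lies farthest to the right, at 4.54 and 4.02, and Abcc4 farthest to the left, at -4.14 and -2.97.

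Of 3 genes of the ileal part of the circuit, Fgf15 had 0 counts in all 8 libraries, which allows a level of up to 0.254 to 0.629 CPM per library at a floor of 3 counts, and Fabp6 had 1 count, in lacZ1 replicate 1. That limit covers counting error only. Slc10a2, the sodium-dependent carrier of the ileum and bile ducts, was detected at 12.8 and 18.7 CPM in shDnajb9, against 26.2 and 36.6 CPM in lacZ1, while shRictor livers had 27.2 and 24.7 CPM, against 18.0 and 23.8 CPM in lacZ2. It fell in shDnajb9 by 0.98 (SE 0.273, adjusted p = 0.0224, edgeR), but not without lacZ1 replicate 2 (-0.72) or shDnajb9 replicate 1 (-0.74). In shRictor its value of 0.31 was not called. The enterocyte marker Cdx2 was at 0 in all 8 libraries, and 0 of 2 tested enterocyte markers changed in either comparison.

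The genes whose level over the 8 libraries was most like that of Cyp7a1 were Aqp9, which encodes a glycerol channel, Agxt2, an aminotransferase, Gys2, the liver glycogen synthase, Tmem135 and Dbt, a subunit of the branched-chain keto acid dehydrogenase. Among 11711 genes ranked, Pearson's r with Cyp7a1 was 0.993 for Aqp9 and Agxt2, 0.986 for Gys2, 0.985 for Tmem135 and 0.983 for Dbt. These are descriptions over libraries that share groups and preparation, so no p is given. Aqp9 stood at 293 and 344 CPM in shDnajb9, against 179 and 218 CPM in lacZ1, while shRictor livers had 408 and 425 CPM, against 109.7 and 216 CPM in lacZ2. As with Cyp7a1, its lowest library was lacZ2 replicate 1 and its highest were those of shRictor.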

How the data were processed

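Ribosomal RNA-depleted liver RNA was sequenced in 8 libraries, and the authors deposited 1 table of raw read counts per gene symbol and library. Per the submitters' processing notes, cutadapt and HTSeq were used with build mm10. Tool versions, aligner, annotation and strand setting are not given in the sources used here, so reads of overlapping or antisense genes cannot be told apart. The 5 HTSeq classes of unassigned reads were left out of library sizes.

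Counts were analysed in R 4.3.3. Low genes were removed with filterByExpr (minimum count 10), libraries were scaled by TMM and genes tested with edgeR 4.0.16 (robust quasi-likelihood F test), with 1 fit of 4 group means to all 8 libraries, which leaves 4 residual degrees of freedom. The contrasts were shDnajb9 minus lacZ1, shRictor minus lacZ2, their difference and lacZ2 minus lacZ1. The threshold was an adjusted p (Benjamini-Hochberg over 13767 genes) below 0.05. The common biological coefficient of variation was 0.209. The procedure was run on simulated data with the same spread for every gene. That setting is simpler than these data, so it does not show how reliable the calls are. Alternatives were RLE factors, total counts, no filter, a filter of 2 CPM in 2 libraries, no top 10 genes, DESeq2 1.42.0, limma-voom (limma 3.58.1), the 4 libraries compared, a replicate block, and leaving out each library, or shDnajb9 replicate 1 with lacZ2 replicate 1. Scaling to 9 hepatocyte markers and a crossed block were added after the data were seen.

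GENCODE M21 gave positions, exon lengths and the share of 50-base stretches found in other genes, and a count was taken as uncertain from 20% upward. Promoter sequences came from RefSeq. The 10 genes and all lists were chosen with earlier results of these data known. Named were the 10 genes, both targets, of the other bile acid genes up to 3 called genes of smallest adjusted p per subgroup and comparison, and the 5 genes most like Cyp7a1 with a mean log2 CPM of at least 1 and no clone-based name. The values of 1 regulator that this rule names are not reported here.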

Additional observations from a re-analysis of the deposited data

How the results depend on the processing

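Of 1250 alternative values of log2 fold changes, 1101 kept direction and side of the threshold, 72 lost a call, 23 gained one and 54 changed sign. The count of bile acid genes called was 6 of 10 in shDnajb9 and ranged from 0 to 8 when 1 library was left out, and was 4 with total counts only, 4 with the replicate block and 7 with DESeq2. In shRictor it was 7, and 5 to 8 under every alternative. The same-numbered libraries did not deviate in the same direction, with correlations of -0.30 in the Dnajb9 and -0.03 in the Rictor experiment. The value of -0.30 means that opposite-numbered libraries of the Dnajb9 experiment deviated together in part. The labels do not pair libraries, so the block is an alternative only. With the lacZ1 numbers crossed, chosen after seeing the data, the counts were 6 and 6 of the 10. Over all genes, 4524 were then called in shDnajb9 and 3259 in shRictor, against 3325 and 2508 in the main fit.

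Over all genes, 3325 were called in shDnajb9, 2184 with the replicate block, 1675 without the 2 libraries high in Rpph1, 7280 scaled to hepatocyte markers and 998 to 4142 with 1 library left out. In shRictor 2508 were called, 10515 scaled to hepatocyte markers and 1053 to 3009 with 1 library left out. The difference called 1 gene, 395 without a filter, 45 with DESeq2, 0 with the replicate block, 93 with the crossed block, 0 without the 2 libraries, 15 scaled to hepatocyte markers and 0 to 19 with 1 library left out. For lacZ2 against lacZ1 it was 0, 13 without a filter, 1 with DESeq2, with 4 libraries, with the crossed block and with hepatocyte scaling, and 0 to 1 with 1 library left out. Of other bile acid genes 15 were called in shDnajb9, 27 scaled to hepatocyte markers and 6 to 16 with 1 library left out, and 15 in shRictor, 26 with the crossed block, 26 scaled to hepatocyte markers and 7 to 19 with 1 library left out. Of all genes called, total counts moved the split to 610 risers and 3354 fallers in shDnajb9 and 436 and 2810 in shRictor, against 1597 and 1728, and 1006 and 1502, with TMM.

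Signs changed with hepatocyte scaling in shDnajb9 for Cyp27a1 (-0.15), Baat (-0.16), Nr1h4 (-0.29), Nr0b2 (-1.0), Nr1i3 (-0.17) and Ppargc1a (-0.0086). They changed in shRictor for Baat (-0.55), Abcb11 (-0.67), Nr1h4 (-0.31), Dnajb9 (-0.98), Fdx1 (-0.11) and Fgfr4 (-0.30), in the difference for Nr1h4 (-0.024), and in lacZ2 against lacZ1 for Baat (0.31), Nr1h4 (0.36) and Nr0b2 (0.29). That scaling moved the median of all genes to -1.12 in shDnajb9, -1.39 in shRictor and 0.42 in lacZ2 against lacZ1. Nr0b2 in shDnajb9 was -0.36 with total counts, -0.042 with limma-voom, -0.015 with either replicate block, -0.78 without the 2 libraries and -0.78 to 0.69 with 1 library left out, and in shRictor -0.27 to 0.10. Without the 2 libraries the difference was -0.52 for Cyp7b1, -0.18 for Slc27a5 and 0.62 for Nr0b2. With 1 library left out it ranged from -0.44 to 1.61 for Cyp7b1, -0.31 to 1.01 for Slc27a5, -0.38 to 0.16 for Baat and -0.77 to 0.70 for Nr0b2. For lacZ2 against lacZ1 the values without the 2 libraries were 0.25 for Cyp7a1, 0.25 for Cyp7b1, 0.038 for Slc27a5, 0.021 for Baat, 0.10 for Slc10a1 and 0.021 for Abcb11, and with total counts 0.030 for Nr1h4. With 1 library left out they ranged from -1.80 to 0.25 for Cyp7a1, -1.80 to 0.25 for Cyp7b1, -1.28 to 0.040 for Slc27a5, -0.37 to 0.17 for Baat, -1.93 to 0.10 for Slc10a1, -1.02 to 0.023 for Abcb11, -0.23 to 0.066 for Nr1h4 and -0.42 to 0.15 for Nr0b2. Other causes were not tested.

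With 2 libraries per group the median SE of a log2 fold change was 0.293 in shDnajb9 and 0.288 in shRictor. Where 1 library was left in a group, its spread was taken from the remaining groups.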
